A study of Mus musculus with 12 samples.

Results

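The subunits of the proteasome were followed at the RNA level in mouse liver. A total of 41 genes were taken by symbol, covering the alpha ring (7 genes), the beta ring (7), the immunoproteasome subunits (3), the ATPases (6) and other subunits (11) of the regulatory cap, cap assembly chaperones (3) and activators (4). Of these, 40 had a probe set that names no other gene, among 12393 genes measured on the array. Psme2 was covered only by a probe set that also names Psme2b and was kept apart. Where a gene had several probe sets, the one with the highest mean over the 12 arrays was used.

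The proteasome is the large protease that degrades proteins tagged with ubiquitin. Its barrel-shaped core is built of alpha rings, which gate the entrance, and beta rings, which hold the cutting sites. A regulatory cap recognises the tagged protein, removes the ubiquitin and uses ATP to unfold the chain and feed it into the core. Interferon induces alternative catalytic subunits that form the immunoproteasome, whose peptides are shown to T cells on MHC class I molecules. When the proteasome is inhibited, the transcription factor Nfe2l1 raises the genes of the core and cap together, and the liver relies on this supply to clear damaged proteins.

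Livers came from C57Bl/6J mice 6 to 8 weeks old, with 1 array per animal and 3 animals in each of 4 groups. MMS-treated Aag knock-out and MMS-treated wild-type mice had received 1 intraperitoneal injection of methyl methanesulfonate (MMS), a DNA-methylating agent, at 75 mg/kg, and livers were taken 6 hours later. Untreated Aag knock-out and untreated wild-type mice were the controls, and whether these were injected with a vehicle is not given in the sources used here. Aag, also named Mpg, is the DNA glycosylase that starts the repair of alkylated bases. How the knock-out allele was made, and which tissues lack the gene, is likewise not given in those sources. Values are deposited log2 expression values, and a difference is always the first-named group minus the second, with the standard error of a limma fit across 22626 probe sets. A gene passed the threshold where its p, adjusted over all those probe sets by the Benjamini-Hochberg method, was under 0.05.

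The median value of an array was 7.42 to 7.75, and the correlation between any 2 arrays was 0.962 to 0.995. The Mpg probe set with the lower signal read 5.75, 5.34 and 5.32 in treated and 5.44, 5.60 and 4.95 in untreated knock-out liver, against 6.40, 6.94 and 6.80 in treated and 6.21, 6.49 and 6.58 in untreated wild-type liver. Every knock-out array was below every wild-type array there, while the other Mpg probe set overlapped between genotypes. Of 16 hepatocyte markers 14 were measured, and their mean log2 value was 13.57 to 13.80 in every array. In whole liver, fewer cells of a type and less RNA per cell cannot be told apart.

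Promoter sequence is shown for the 4 genes that passed the threshold in any comparison, and for a further 3 genes that encode catalytic subunits. Sequences are RefSeq windows on build GRCm38.p6, which holds a window for 35 of the 41 genes (not for Psmb1, Psmb2, Psmb7, Psmc3, Psmd3 and Psmd7). The stretch shown ends at the base before the annotated start. It begins 250 bases before the start for the first 4 genes and 100 bases before it for the others. Capitals mark matches to 3 motifs on either strand: the core of the antioxidant response element (TGACNNNGC), which Nfe2l1 and Nfe2l2 bind, the interferon response element (GAAANN directly followed by GAAA) and the CCAAT box (CCAAT). No capitals of different motifs overlap.
Psmb8: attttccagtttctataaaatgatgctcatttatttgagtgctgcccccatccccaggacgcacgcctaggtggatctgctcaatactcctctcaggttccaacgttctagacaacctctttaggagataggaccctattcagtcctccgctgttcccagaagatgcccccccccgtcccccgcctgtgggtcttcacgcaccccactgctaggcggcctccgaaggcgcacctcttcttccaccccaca
Psmd4: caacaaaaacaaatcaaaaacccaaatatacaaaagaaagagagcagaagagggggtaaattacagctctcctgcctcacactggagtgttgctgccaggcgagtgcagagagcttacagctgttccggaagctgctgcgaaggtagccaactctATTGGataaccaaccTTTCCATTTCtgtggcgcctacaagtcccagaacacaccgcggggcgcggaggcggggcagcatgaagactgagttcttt
Psma7: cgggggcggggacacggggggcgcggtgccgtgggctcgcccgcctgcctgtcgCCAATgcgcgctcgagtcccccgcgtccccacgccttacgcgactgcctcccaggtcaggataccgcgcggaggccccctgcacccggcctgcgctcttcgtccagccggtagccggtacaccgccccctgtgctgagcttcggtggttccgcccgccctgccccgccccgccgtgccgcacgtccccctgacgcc
Psmc6: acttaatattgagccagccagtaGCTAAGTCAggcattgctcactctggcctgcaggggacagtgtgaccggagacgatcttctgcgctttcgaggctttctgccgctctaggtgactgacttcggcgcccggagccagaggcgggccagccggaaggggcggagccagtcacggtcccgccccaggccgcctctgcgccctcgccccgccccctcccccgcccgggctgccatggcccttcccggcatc
Psmb9: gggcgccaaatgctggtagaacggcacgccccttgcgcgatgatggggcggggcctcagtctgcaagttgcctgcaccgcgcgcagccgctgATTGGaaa
Psmb5: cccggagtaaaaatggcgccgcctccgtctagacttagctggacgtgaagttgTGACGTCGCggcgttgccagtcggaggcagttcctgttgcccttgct
Psmb6: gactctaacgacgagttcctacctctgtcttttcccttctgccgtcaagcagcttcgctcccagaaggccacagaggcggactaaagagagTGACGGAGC
These lie at chr17:34197945-34198194 (plus strand), chr3:95042615-95042864 (minus strand), chr2:180042465-180042714 (minus strand), chr14:45329574-45329823 (plus strand), chr17:34187331-34187430 (minus strand), chr14:54617996-54618095 (minus strand) and chr11:70525257-70525356 (plus strand). In the whole windows, which run from 250 bases before to 50 after the start, the antioxidant core was found in 6 of 35 genes (17.1%), against 14% of all 27025 genes with a window. They were Psmb5, Psmb6, Psmc6, Psmd9, Psmd12 and Psme4. The interferon element was found in Psmb3, Psmd4, Psmd9 and Psme1, which is 11.4% against 3.99% of all genes, and the CCAAT box in 13 (37.1% against 41.1%). Psmb8 held none of the 3 strings in its window. A match is a description of the letters only, and the shares were not tested.

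Across both genotypes, the proteasome genes as a group stood slightly above their untreated level 6 hours after MMS, and 4 of the 40 passed the threshold. Psmb8, a catalytic subunit of the immunoproteasome, Psmd4, a ubiquitin receptor of the cap, Psma7, an alpha ring subunit, and Psmc6, a cap ATPase, rose. None fell. The difference was positive for 34 of 40 genes, with a median of 0.22, against -0.050 over all probe sets. The share past the threshold was 10% of the genes, all higher. Of all probe sets 11.3% passed in this comparison, 4.61% higher and 6.66% lower.

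Psmb8 read 10.62, 10.77 and 10.18 in treated knock-out and 9.61, 10.37 and 9.81 in treated wild-type liver, against 9.83, 9.61 and 9.59 in untreated knock-out and 9.61, 9.46 and 9.69 in untreated wild-type liver. Its highest values were knock-out arrays 1 and 2, and treated wild-type arrays 1 and 3 lay within the untreated range. The MMS effect was 0.60 ± 0.15 (1.51-fold, limma adjusted p = 0.0267). Psmd4 read 11.63, 11.86 and 10.999 in treated knock-out and 10.61, 11.13 and 11.07 in treated wild-type liver, against 10.51, 10.52 and 10.73 in untreated knock-out and 10.58, 10.68 and 10.75 in untreated wild-type liver. Here 5 of the 6 treated arrays lay above every untreated array, again with wild-type array 1 as the exception. The effect was 0.59 ± 0.15 (1.503-fold, limma adjusted p = 0.0312).

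Psma7 and Psmc6 had smaller but more even differences. Psma7 read 12.07, 12.08 and 11.91 in treated knock-out and 11.79, 12.10 and 11.88 in treated wild-type liver, against 11.73, 11.69 and 11.63 in untreated knock-out and 11.62, 11.77 and 11.64 in untreated wild-type liver (0.29 ± 0.08, limma adjusted p = 0.0433). Psmc6 read 12.30, 12.20 and 12.27 in treated knock-out and 12.29, 12.36 and 12.38 in treated wild-type liver, against 11.99, 12.05 and 12.06 in untreated knock-out and 11.99, 12.11 and 12.10 in untreated wild-type liver (0.25 ± 0.07, limma adjusted p = 0.0441). For both genes all 6 treated arrays lay above all 6 untreated arrays. The alpha ring gene Psma1 was the third such gene (0.20 ± 0.07, limma adjusted p = 0.0847), and 1.81% of all probe sets were separated in this way. Psmc6 has a pair of other probe sets, with effects of -0.19 ± 0.16 and -0.24 ± 0.18, so its rise was seen at 1 of 3 probe sets.

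These calls rested on the full set of arrays. With 1 array left out, the number of genes past the threshold was 0 without treated knock-out array 1 or 2, untreated knock-out array 2 or untreated wild-type array 1 or 2. It was 1 without treated wild-type array 2 or 3, untreated knock-out array 1 or untreated wild-type array 3, and 2 without untreated knock-out array 3. It was 13 without treated knock-out array 3, where 19% of all probe sets passed, and 15 without treated wild-type array 1, where 13.6% did. In the other 10 fits 5.45% to 10.8% of all probe sets passed. The difference stayed positive for 33 or 34 genes in all 12 of these fits.

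**Figure D1:**
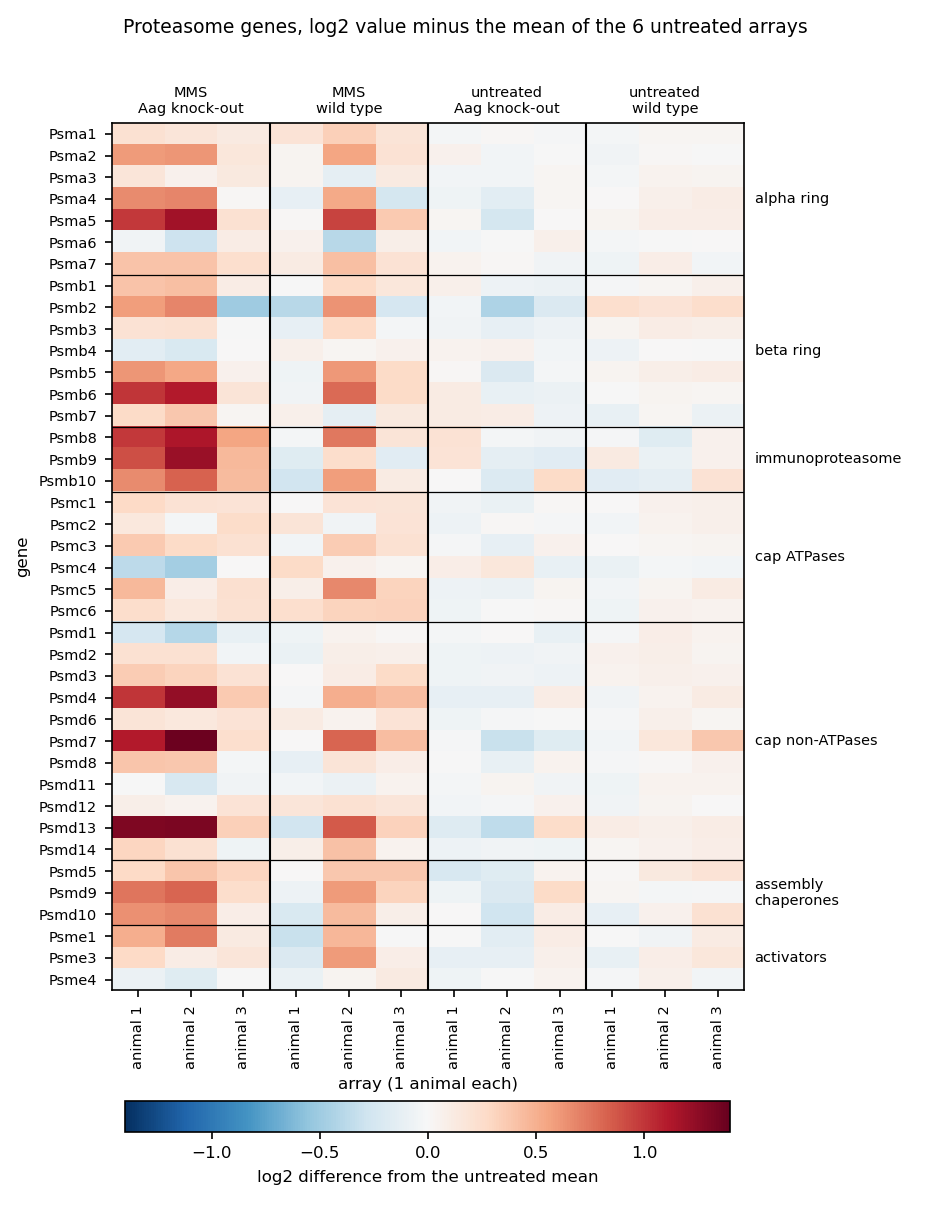
Each cell is the log2 value of a gene (rows, by class) in an array (columns, 1 animal each) minus the mean of the 6 untreated arrays, on a colour scale from blue (below) to red (above). Treated knock-out arrays 1 and 2 and treated wild-type array 2 are red over most rows, with Psma6, Psmb4, Psmc4, Psmd1, Psmd11 and Psme4 as pale or blue rows in the knock-out arrays.

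The treated animals of a group differed among themselves more than the untreated ones did. The mean over the 40 genes of the log2 value minus its untreated mean was 0.42, 0.41 and 0.14 in treated knock-out arrays 1 to 3 and -0.025, 0.34 and 0.15 in treated wild-type arrays 1 to 3, against -0.090 to 0.073 in the untreated arrays. Knock-out arrays 1 and 2 and wild-type array 2 were thus high, while wild-type array 1 lay among the untreated ones. The number of genes above their highest untreated value was 34, 30 and 24 in the treated knock-out arrays and 8, 30 and 25 in the treated wild-type arrays. Over all probe sets that share was 24.6%, 24.3% and 19.9% in the knock-out and 14.4%, 27.1% and 18.97% in the wild-type arrays.

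Those same 3 arrays held the 3 highest of the 12 values in 22 of the 40 genes (55%), against 7.30% of all probe sets. The 22 genes came from each class: Psma2, Psma4, Psma5 and Psma7 of the alpha ring, Psmb1, Psmb2, Psmb3, Psmb5 and Psmb6 of the beta ring, Psmb8 and Psmb10 of the immunoproteasome, Psmc1 and Psmc3 of the ATPases, and Psmd2, Psmd4, Psmd7, Psmd8, Psmd13 and Psmd14 of the rest of the cap, with Psmd9, Psmd10 and Psme1. They were the 3 lowest for 1 gene, Psma6. The standard deviation within a group was larger in treated than in untreated knock-out liver for 34 of 40 genes (59.3% of all probe sets), and in treated than in untreated wild-type liver for 37 of 40 (72.0%). The widest spread was that of Psmb2, with 10.82, 10.93 and 9.74 in treated knock-out liver.

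A technical measure moved with this order. Affymetrix arrays carry control probe sets at the 5′ and 3′ ends of the Gapdh and actin transcripts, whose ratio is read as a sign of how complete the labelled RNA was. The log2 ratio of 5′ over 3′ signal for Gapdh was -0.70, -0.67 and -1.55 in treated knock-out arrays 1 to 3 and -1.89, -0.85 and -1.52 in treated wild-type arrays 1 to 3, against -1.93 to -1.4999 in the untreated arrays. For actin it was -2.53, -2.35 and -3.37 in treated knock-out and -3.33, -3.15 and -3.41 in treated wild-type arrays, against -3.41 to -3.05 in untreated ones. The 3 arrays with high proteasome values were therefore the 3 with the highest Gapdh ratio, as the plot of the control ratio against the mean of the 40 genes shows.

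**Figure D2:**
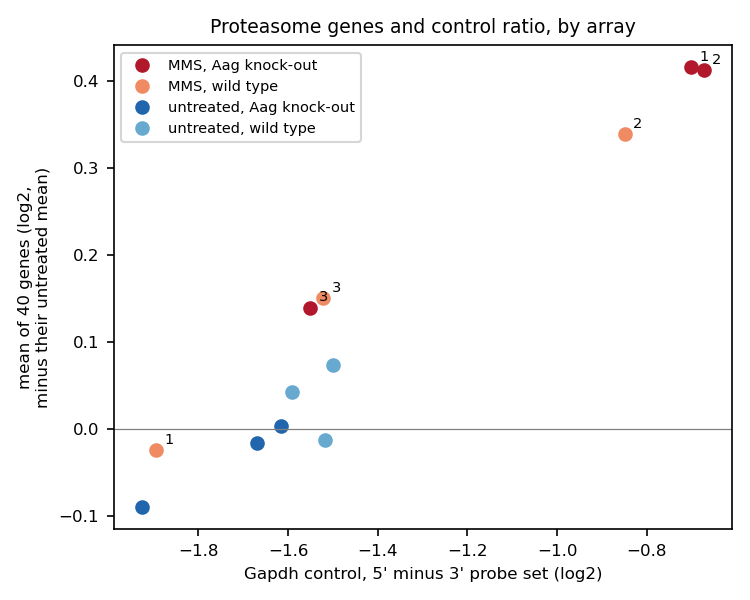
Each point is an array, with the Gapdh control's log2 ratio of 5′ to 3′ signal on the x axis and the mean of the 40 genes (log2, minus their untreated mean) on the y axis, coloured by group, with animal numbers beside treated arrays. Treated knock-out arrays 1 and 2 and treated wild-type array 2 stand apart at ratios of -0.85 to -0.67 and means of 0.34 to 0.42.

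With the mean of the Gapdh and actin ratios as a covariate, 0 of the 40 genes passed the threshold in the averaged MMS effect. Of all probe sets 5.13% passed in that fit, against 11.3% in the full fit. The difference stayed positive for 33 of 40 genes, with a median of 0.14 against -0.040 over all probe sets. Without the 3 arrays, a setting chosen after the values were seen, 31 genes were positive, with a median of 0.14 against -0.023 over all probe sets. The MMS effect of Psmc6 was 0.25 in the full fit, 0.24 ± 0.07 with the covariate and 0.25 ± 0.08 without the 3 arrays. That of Psmb8 was 0.60, 0.37 ± 0.11 and 0.31 ± 0.11 in the same 3 fits, and that of Psmd4 was 0.59, 0.33 ± 0.09 and 0.29 ± 0.13. The size of the Psmc6 difference was thus nearly the same in the 3 fits, while those of Psmb8 and Psmd4 were smaller in the last 2. For Psma7, the remaining gene past the threshold, the response in wild-type liver was 0.25 in the full fit and with the covariate. It was 0.16 without the 3 arrays.

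In Aag knock-out liver the genes stood higher after MMS, but none of the 40 passed the threshold, which 1.51% of all probe sets did. The difference was positive for 34 genes, with a median of 0.30 against -0.061 over all probe sets. At an unadjusted p under 0.05, 21 genes were higher and 1, Psmc4, was lower, and 12.7% of all probe sets were higher and 12% lower by that rule. The 3 treated arrays lay above the 3 untreated ones in 25 genes (12.9% of all probe sets), and below them in 1, Psmd1, the large scaffold subunit of the cap. The smallest p values belonged to Psmb9 (0.89 ± 0.20, limma adjusted p = 0.0529), Psmd4 (0.91 ± 0.21, adjusted p = 0.0566) and Psmb8 (0.85 ± 0.21, adjusted p = 0.0594). Without treated knock-out array 3, 15 genes passed, 14 of them higher, and 14.4% of all probe sets did. It was 3 without treated wild-type array 1 and 2 without treated wild-type array 2, where 2.99% and 2.7% of all probe sets passed, and 0 in the other 9 such fits.

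In wild-type liver 0 of 40 genes passed, against 6.44% of all probe sets. With each array centred on its median, the median over all probe sets moved to 0.14 and that of the 40 genes to 0.31, and relative to all probe sets the 40 genes stood 0.17 higher either way. The difference was positive for 31 genes, with a median of 0.11 against -0.054 over all probe sets, and 2 genes (5%) had an unadjusted p under 0.05, against 23.2% of all probe sets. These were Psmc6 (0.28 ± 0.10, limma adjusted p = 0.122) and Psma1 (0.23 ± 0.10, adjusted p = 0.191), followed by Psma7 (0.25 ± 0.12, adjusted p = 0.227). Treated and untreated arrays did not overlap in 7 genes, all higher, while 11.3% of all probe sets were separated and higher. The 7 were Psma1, Psma2, Psma7, Psmb4, Psmc4, Psmc6 and Psmd12.

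**Figure D3:**
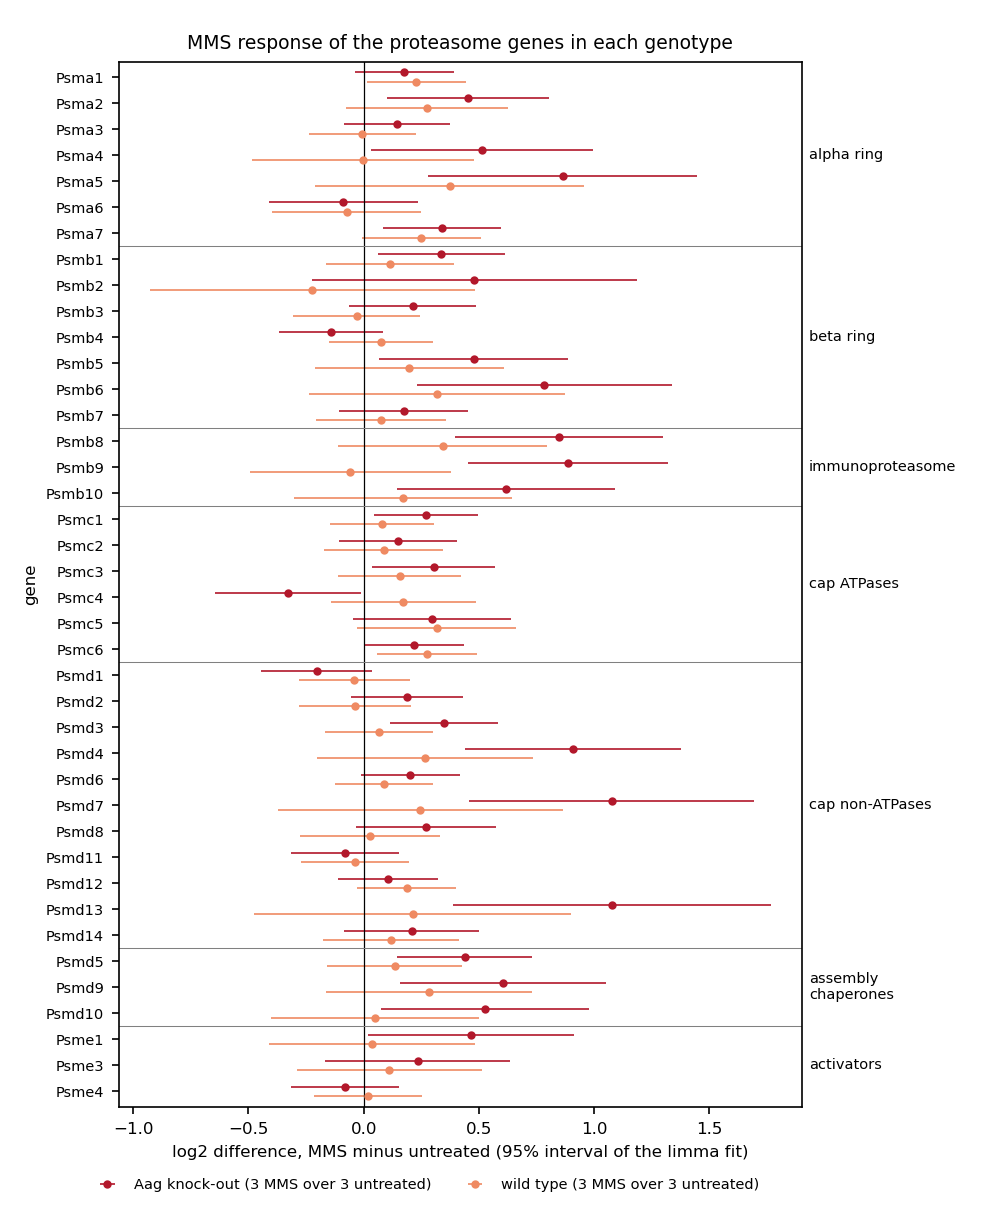
Log2 difference, MMS minus untreated, for each gene in knock-out (dark) and wild-type (light) liver, with the 95% interval of the limma fit (3 arrays per group). Most points lie right of 0, with Psmd13 (1.08) and Psmd7 (1.08) farthest right in knock-out liver and Psmc4 (-0.33) farthest left there.

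Within the alpha ring, which gates the core, the median difference was 0.34 in knock-out and 0.23 in wild-type liver. Psma5 had the largest MMS effect of the ring over both genotypes, with 12.53, 12.72 and 11.75 in treated knock-out and 11.55, 12.49 and 11.91 in treated wild-type liver, against 11.56, 11.29 and 11.54 in untreated knock-out and 11.58, 11.63 and 11.63 in untreated wild-type liver (0.62 ± 0.19, limma adjusted p = 0.0578). Its treated arrays ran from within the untreated range to far above it. The other Psma5 probe sets stood at 0.31 ± 0.13 and 0.16 ± 0.09 in the averaged effect. In knock-out liver they stood at 0.25 ± 0.18 and 0.38 ± 0.12, against 0.86 for the probe set used. Psma3 had the smallest effect (0.070 ± 0.074), and Psma6 stood at -0.081 ± 0.10. The other Psma6 probe sets differed in sign, at 0.13 ± 0.075, -0.27 ± 0.15 and -0.27 ± 0.18.

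Of the beta ring, Psmb5, Psmb6 and Psmb7 carry the cutting sites, of chymotrypsin-like, caspase-like and trypsin-like type. Psmb6 read 12.76, 12.87 and 11.94 in treated knock-out and 11.71, 12.55 and 12.03 in treated wild-type liver, against 11.88, 11.66 and 11.68 in untreated knock-out and 11.75, 11.80 and 11.79 in untreated wild-type liver. Psmb5 read 12.59, 12.52 and 12.04 in treated knock-out and 11.92, 12.59 and 12.24 in treated wild-type liver, against 11.99, 11.78 and 11.95 in untreated knock-out and 12.01, 12.06 and 12.08 in untreated wild-type liver. Both had their 3 highest values in treated knock-out arrays 1 and 2 and treated wild-type array 2, though not in the same order. Their groups did not overlap in the knock-out and overlapped in the wild type. In knock-out liver their differences were 0.78 ± 0.25 (limma adjusted p = 0.0995) and 0.48 ± 0.19 (adjusted p = 0.148), and in wild-type liver 0.32 ± 0.25 and 0.20 ± 0.19. Psmb7 read 12.06, 12.17 and 11.82 in treated knock-out and 11.86, 11.67 and 11.92 in treated wild-type liver, against 11.91, 11.90 and 11.72 in untreated knock-out and 11.69, 11.82 and 11.71 in untreated wild-type liver. Its groups overlapped in both genotypes (0.17 ± 0.13 in knock-out and 0.075 ± 0.13 in wild-type liver). The structural subunits Psmb3 and Psmb4 had averaged effects of 0.091 ± 0.088 and -0.033 ± 0.072, and Psmb2 of 0.13 ± 0.23.

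The immunoproteasome subunits Psmb9, Psmb10 and Psmb8 replace Psmb6, Psmb7 and Psmb5 in the core when it is newly assembled under interferon. As a class they had the largest median difference in knock-out liver, 0.85, against 0.17 in wild-type liver. Psmb9 read 10.06, 10.37 and 9.61 in treated knock-out and 8.99, 9.41 and 8.997 in treated wild-type liver, against 9.35, 9.04 and 8.995 in untreated knock-out and 9.28, 9.07 and 9.22 in untreated wild-type liver. All 3 treated knock-out arrays were above the other 9, and the treated wild-type arrays overlapped the untreated ones. Psmb10 read 11.51, 11.68 and 11.29 in treated knock-out and 10.58, 11.44 and 10.97 in treated wild-type liver, against 10.85, 10.66 and 11.11 in untreated knock-out and 10.70, 10.73 and 11.06 in untreated wild-type liver. It separated in knock-out liver (0.62 ± 0.21, limma adjusted p = 0.117) and overlapped in wild-type liver (0.17 ± 0.21).

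**Figure D4:**
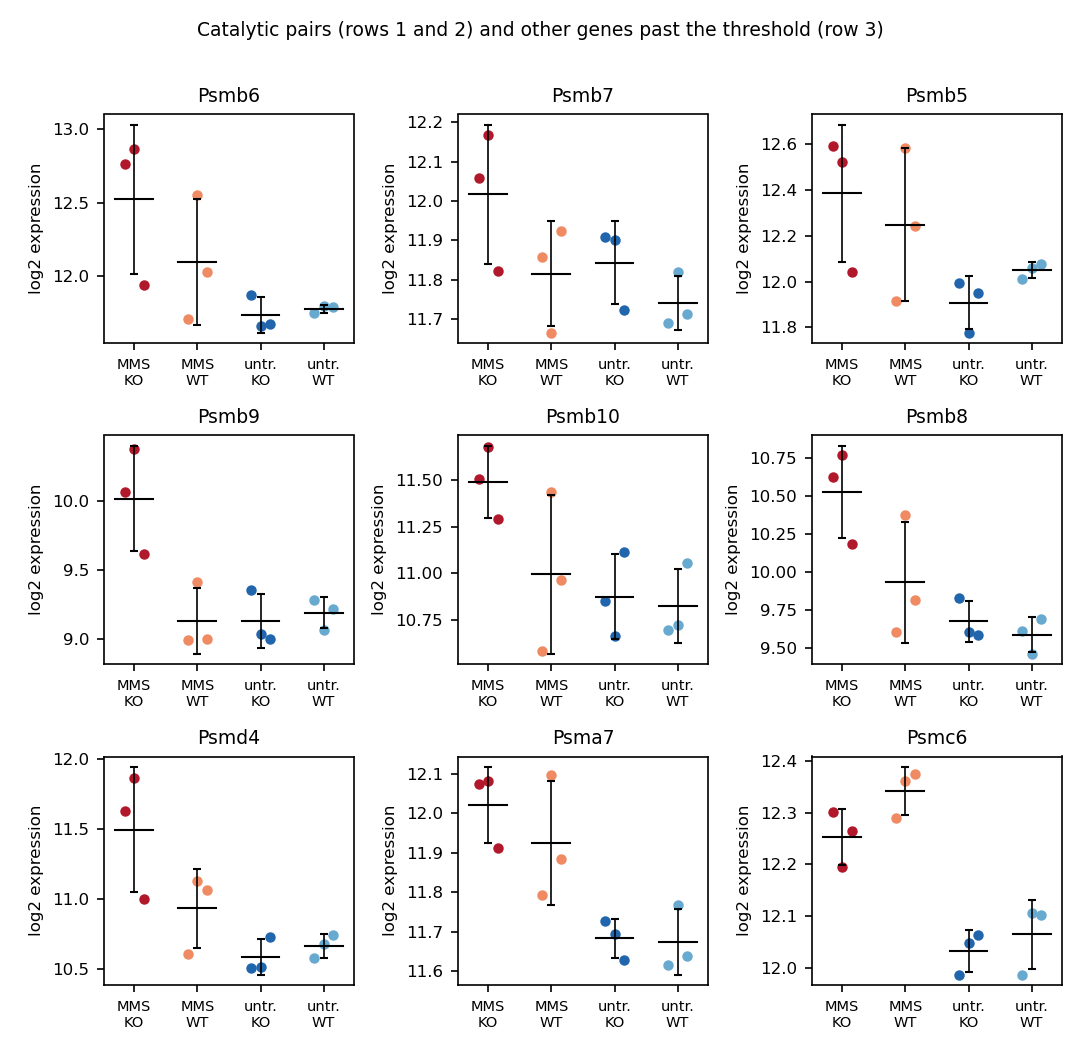
Log2 expression of the catalytic subunits Psmb6, Psmb7 and Psmb5 (top row), of the immunoproteasome subunits Psmb9, Psmb10 and Psmb8 that replace them (middle row) and of Psmd4, Psma7 and Psmc6 (bottom row), by group (KO, Aag knock-out, and WT, wild type). Points are animals, and the bar is the mean ± SD (n = 3). Each panel has its own axis, which does not start at 0. For Psmb9 the 3 treated knock-out animals (9.61 to 10.37) lie above the other 9.

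In the cap ATPases, which unfold the substrate, the median difference was 0.24 in knock-out and 0.16 in wild-type liver. Psmc5 had the largest averaged effect of these 6 genes (0.31 ± 0.11, limma adjusted p = 0.1), with 11.74, 11.39 and 11.52 in treated knock-out and 11.37, 11.96 and 11.61 in treated wild-type liver, against 11.22, 11.21 and 11.33 in untreated knock-out and 11.25, 11.33 and 11.41 in untreated wild-type liver. Psmc4 differed from the other 5. It read 12.32, 12.21 and 12.69 in treated knock-out and 12.95, 12.74 and 12.71 in treated wild-type liver, against 12.77, 12.84 and 12.58 in untreated knock-out and 12.59, 12.65 and 12.65 in untreated wild-type liver. Its treated wild-type arrays were all above the untreated wild-type ones, and its lowest values were treated knock-out arrays 1 and 2. The other Psmc4 probe set did not repeat this, with differences of -0.013 ± 0.12 in knock-out and 0.15 ± 0.12 in wild-type liver.

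Among the other cap subunits the median difference was 0.21 in knock-out and 0.087 in wild-type liver. Psmd7, the partner of the deubiquitinase Psmd14, read 8.72, 8.97 and 7.84 in treated knock-out and 7.61, 8.41 and 8.04 in treated wild-type liver, against 7.58, 7.29 and 7.43 in untreated knock-out and 7.57, 7.77 and 7.99 in untreated wild-type liver (averaged effect 0.66 ± 0.20, limma adjusted p = 0.0563). The lid subunit Psmd13 read 11.07, 11.08 and 10.10 in treated knock-out and 9.49, 10.63 and 10.09 in treated wild-type liver, against 9.58, 9.41 and 10.03 in untreated knock-out and 9.87, 9.84 and 9.87 in untreated wild-type liver. Both were highest in knock-out arrays 1 and 2, with differences in knock-out liver of 1.08 ± 0.28 and 1.08 ± 0.31 (limma adjusted p = 0.0681 and 0.0831). The Psmd7 probe set used had a mean of 7.93 over the 12 arrays, and its other probe sets had means of 6.88 and 5.77. Those others stood at -0.052 ± 0.23 and -0.055 ± 0.31 in knock-out liver. In the averaged effect they stood at -0.30 ± 0.17 and 0.073 ± 0.22. The other Psmd13 probe set stood at 0.63 ± 0.17 in knock-out liver. The lid subunits Psmd6 (0.14 ± 0.07) and Psmd11 (-0.059 ± 0.075) had small averaged effects, and Psmd1 was at -0.12 ± 0.08.

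The cap assembly chaperones Psmd5, Psmd9 and Psmd10 bind the ATPases before the cap is complete and are absent from the finished particle. Their median difference was 0.53 in knock-out and 0.14 in wild-type liver. Psmd9 read 10.17, 10.23 and 9.66 in treated knock-out and 9.34, 10.02 and 9.73 in treated wild-type liver, against 9.36, 9.22 and 9.68 in untreated knock-out and 9.45, 9.39 and 9.40 in untreated wild-type liver (averaged effect 0.44 ± 0.14, limma adjusted p = 0.0713). The other Psmd9 probe set passed the threshold in that comparison (0.53 ± 0.15, adjusted p = 0.0449), with all 6 treated arrays above all untreated ones. Psmd5 and Psmd10 had averaged effects of 0.29 ± 0.09 and 0.29 ± 0.14.

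The activators cap the core in place of the regulatory particle. Psme1, which together with Psme2 forms an interferon-induced activator that favours peptide production, read 12.58, 12.80 and 12.19 in treated knock-out and 11.76, 12.54 and 12.06 in treated wild-type liver, against 12.07, 11.92 and 12.18 in untreated knock-out and 12.06, 12.02 and 12.18 in untreated wild-type liver. Its knock-out groups were just separated (0.47 ± 0.20, limma adjusted p = 0.186) and its wild-type groups overlapped (0.035 ± 0.20). The nuclear activator Psme3 had an averaged effect of 0.17 ± 0.13, and Psme4 one of -0.031 ± 0.075.

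Class medians in knock-out liver were smaller with the control ratio in the model. The 3 arrays with the highest ratio were all treated, and 2 of them were knock-out arrays. MMS and the ratio cannot be fully told apart there. With the ratio as a covariate the median of the 40 genes was 0.12 in knock-out liver, against 0.30 in the full fit, and it was 0.11 in wild-type liver in both. The immunoproteasome median in knock-out liver was 0.39 with the covariate and 0.48 without the 3 arrays, the largest of the 7 classes in each case. In the same fits the beta ring median in knock-out liver was 0.048 and 0.070, and that of the cap ATPases 0.17 and 0.24. In wild-type liver the immunoproteasome median was 0.17 with the covariate and -0.049 without the 3 arrays, so its sign there turned. Without the 3 arrays only 1 treated knock-out and 2 treated wild-type arrays remained, and the lone array was assumed to vary like the other groups.

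**Figure D5:**
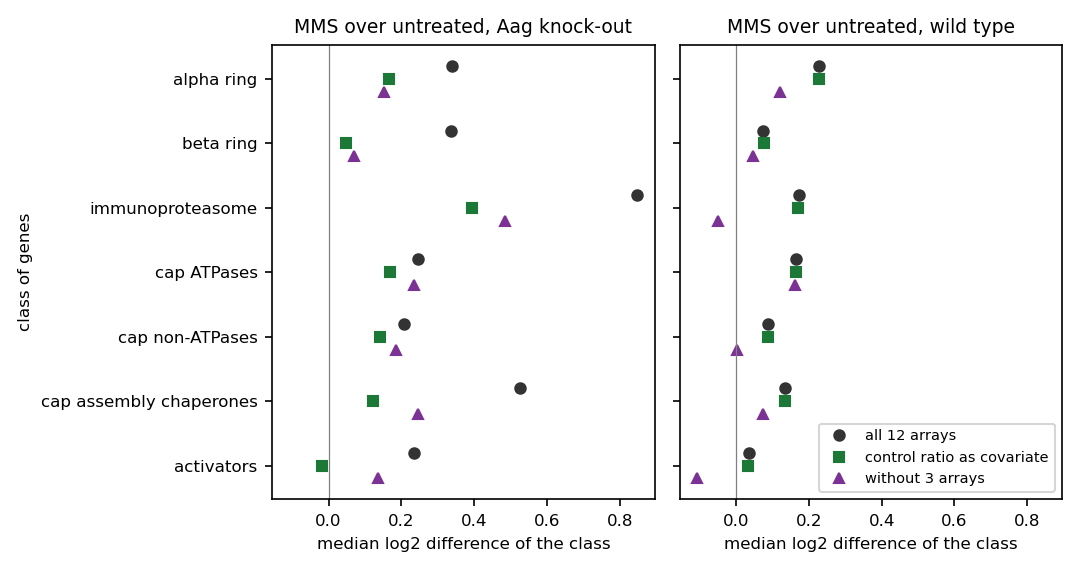
Median log2 difference, MMS minus untreated, of each class in knock-out (left) and wild-type (right) liver, in the full fit, with the 5′ to 3′ control ratio as a covariate, and without the 3 arrays with the highest ratio. In knock-out liver the immunoproteasome stands farthest right in all 3 fits (0.85, 0.39 and 0.48).

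Loss of Aag without MMS was followed by no change past the threshold in any of the 40 genes, against 0.0398% of all probe sets. The difference was negative for 30 genes, with a median of -0.053 (-0.019 over all probe sets, and 0.041 for the 40 genes with each array centred on its median), and no gene had an unadjusted p under 0.05, against 7.16% of all probe sets. The 3 knock-out arrays lay below the 3 wild-type ones in 7 of the 40 genes and above them in 0. Of all 22626 probe sets, 2438 were lower and 1702 higher in this way. The smallest p values belonged to Psmd5 (-0.24 ± 0.13), Psmb2 (-0.45 ± 0.32) and Psmb3 (-0.15 ± 0.13), with limma adjusted p of 0.772, 0.84 and 0.867.

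Between treated knock-out and treated wild-type liver, again 0 of 40 passed, against 0.0177% of all probe sets. The difference was positive for 30 genes, with a median of 0.11 against 0.023 over all probe sets, but that median was -0.054 with each array centred on its own median and -0.018 with the control ratio as covariate. The largest was that of Psmb9, 0.88 ± 0.20 (1.84-fold, limma adjusted p = 0.103), and its groups did not overlap. Of the 40 genes, 1 was separated and higher in this way, Psmb9 itself, against 9.92% of all probe sets. Another 3, Psmb4, Psmc4 and Psmd1, were separated and lower, against 1745 of 22626 probe sets. By p value Psmb9 was followed by Psmb8 (0.59 ± 0.21, adjusted p = 0.187) and by Psmc4, which was lower (-0.40 ± 0.14, adjusted p = 0.197). Without treated knock-out array 3, 3 genes passed, and Psmb9 stood at 1.08 (adjusted p = 0.0251). Leaving out that array also raised the share of all probe sets past the threshold in the averaged MMS effect and in knock-out liver. Without knock-out arrays 3 of both treatments, 3 genes passed, beside 5.98% of all probe sets. In the full fit, at an unadjusted p under 0.05, 4 of the 40 genes were higher and 2 lower in limma, and 10.7% of all probe sets were higher and 7.71% lower. Averaged over treatments, 0 of 40 passed (0.0265% of all probe sets), led by Psmb9 (0.41 ± 0.14), Psmb8 (0.34 ± 0.15) and Psmd1 (-0.17 ± 0.08).

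The test of whether the MMS response itself depended on Aag, the difference of the 2 responses, was passed by 0 of 40 genes and by 0% of all probe sets in limma. At an unadjusted p under 0.05 there were 2 of the 40 (5%), against 17.7% of all probe sets. Psmb9 had a difference of responses of 0.94 ± 0.28 (limma adjusted p = 0.164) and Psmc4 one of -0.50 ± 0.20 (adjusted p = 0.242), followed by Psmd4 at 0.64 ± 0.30 (adjusted p = 0.296). With the control ratio as covariate these were 0.54 ± 0.23, -0.22 ± 0.16 and 0.13 ± 0.19. The median over the 40 genes was 0.21 in the full fit, -0.017 with the covariate and -0.053 with each array centred on its median. The responses in the 2 genotypes were thus not shown to differ for any single gene.

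Where a gene had several probe sets, these did not always move together. The 19 genes with more than 1 had 33 others, of which 21 had the same sign as the probe set used in the averaged MMS effect. Of the others, 3 passed the threshold, all higher: those of Psmc2 (0.43 ± 0.10, limma adjusted p = 0.0238), Psmd13 (0.43 ± 0.12, adjusted p = 0.0448) and Psmd9. The other Psmc2 probe set read 12.06, 11.97 and 11.73 in treated knock-out and 11.37, 11.83 and 11.82 in treated wild-type liver, against 11.25, 11.23 and 11.31 in untreated knock-out and 11.42, 11.48 and 11.53 in untreated wild-type liver. In knock-out liver 16 of the 33 had the same sign as the probe set used, and in wild-type liver 27 did. A Psma1 probe set of low signal rose in wild-type liver (1.18 ± 0.24, limma adjusted p = 0.02), with 6.25, 6.07 and 6.41 in treated and 4.87, 5.30 and 5.04 in untreated wild-type liver. A Psmd11 probe set other than the one used fell in wild-type liver (-0.60 ± 0.14, limma adjusted p = 0.0341), with 8.14, 7.84 and 8.15 in treated and 8.69, 8.47 and 8.79 in untreated wild-type liver. For Psmd4 the others stood at 0.83 ± 0.27 (adjusted p = 0.0703) and 0.057 ± 0.11.

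Factors that build, regulate or feed the proteasome were described from a list of 27 genes, of which 23 were measured. In the averaged MMS effect 1 rose, 1 fell and 21 did not pass, with a median of 0.18. Of all probe sets 4.61% were called higher and 6.66% lower there, with a median of -0.050. Psmg3, a chaperone of core assembly, read 11.10, 11.05 and 10.38 in treated knock-out and 10.04, 11.13 and 10.34 in treated wild-type liver, against 9.83, 9.72 and 10.08 in untreated knock-out and 9.78, 9.95 and 10.12 in untreated wild-type liver (0.76 ± 0.19, limma adjusted p = 0.0307). Its 3 highest values were in the same 3 arrays as those of many subunits. Zfand5, which binds the proteasome and speeds degradation, read 11.23, 11.19 and 11.20 in treated knock-out and 11.25, 10.99 and 11.19 in treated wild-type liver, against 11.53, 11.38 and 11.42 in untreated knock-out and 11.60, 11.60 and 11.55 in untreated wild-type liver. All its treated arrays lay below all untreated ones (-0.34 ± 0.08, adjusted p = 0.0185), and it also fell in wild-type liver alone (-0.44 ± 0.11, adjusted p = 0.0379). Nfe2l1 read 10.92, 11.03 and 10.89 in treated knock-out and 10.79, 10.88 and 11.13 in treated wild-type liver, against 10.82, 10.71 and 10.98 in untreated knock-out and 10.85, 10.94 and 11.02 in untreated wild-type liver, with overlap in both genotypes. Nfe2l2 read 10.83, 10.61 and 10.64 in treated knock-out and 10.31, 9.85 and 10.19 in treated wild-type liver, against 10.46, 10.28 and 10.995 in untreated knock-out and 10.66, 10.64 and 10.65 in untreated wild-type liver. Its treated wild-type arrays were all below the untreated wild-type ones, but neither regulator passed the threshold.

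Of 15 genes that supply or activate ubiquitin 8 were measured, with a median of -0.18 in the averaged MMS effect. None rose, 1 fell and 7 did not pass, while 4.61% of all probe sets were called higher and 6.66% lower. The median over all probe sets was -0.050. Ube2d1, a ubiquitin-conjugating enzyme, read 8.97, 9.25 and 8.40 in treated knock-out and 8.73, 9.10 and 8.81 in treated wild-type liver, against 9.49, 9.08 and 9.13 in untreated knock-out and 9.52, 9.54 and 9.70 in untreated wild-type liver (-0.53 ± 0.15, limma adjusted p = 0.0415). Its wild-type groups were separated and its knock-out groups overlapped.

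Genes of MHC class I presentation, which use the peptides that the immunoproteasome makes, were measured for 11 of 16. In the averaged MMS effect 3 rose, none fell and 8 did not pass, while 4.61% of all probe sets were called higher. The median was 0.040 against -0.050 over all probe sets. Tapbpl, an editor of the bound peptides, read 9.19, 9.34 and 8.54 in treated knock-out and 8.42, 8.83 and 8.78 in treated wild-type liver, against 7.99, 7.55 and 7.81 in untreated knock-out and 7.87, 7.93 and 7.92 in untreated wild-type liver. All its treated arrays lay above all untreated ones (1.00 ± 0.14, 2.00-fold, limma adjusted p = 0.00344), and it also rose in knock-out liver alone (1.24 ± 0.21, adjusted p = 0.0318). Tap1, a subunit of the peptide transporter, read 10.04, 10.35 and 9.73 in treated knock-out and 9.25, 9.82 and 9.31 in treated wild-type liver, against 9.37, 9.02 and 9.25 in untreated knock-out and 9.39, 9.32 and 9.25 in untreated wild-type liver (0.48 ± 0.14, adjusted p = 0.0437). Its 4 highest arrays were those of Psmb8, in the same order. Pdia3, an oxidoreductase of the loading complex, rose by 0.69 ± 0.19 (adjusted p = 0.0413). For all 3 genes the 3 highest values were in treated knock-out arrays 1 and 2 and treated wild-type array 2.

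Interferon regulators and targets were measured for 20 of 22 genes. In the averaged MMS effect 1 rose, 1 fell and 18 did not pass, while 4.61% of all probe sets were called higher and 6.66% lower. The median was -0.22 against -0.050 over all probe sets. The interferon-responsive transcription factor Irf1 read 10.33, 10.63 and 10.11 in treated knock-out and 10.02, 10.20 and 9.80 in treated wild-type liver, against 10.11, 9.61 and 10.03 in untreated knock-out and 9.61, 9.53 and 9.50 in untreated wild-type liver (0.45 ± 0.12, limma adjusted p = 0.0408). Its wild-type groups were separated, and knock-out array 3 lay at the level of untreated knock-out array 1. The 3 highest Irf1 values were in treated knock-out arrays 1 and 2 and treated wild-type array 2. The antiviral gene Rsad2 fell (-0.73 ± 0.19, adjusted p = 0.0357). By genotype the list had a median of 0.078 in knock-out liver, with 0 genes past the threshold, against 1.51% of all probe sets. Its median was -0.42 in wild-type liver, where 4 fell and none rose (Rsad2, Ifit1, Usp18 and Ifit2), against 4.45% of all probe sets lower there.

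Leukocytes carry immunoproteasome subunits at high level, so their markers are given beside these values. The mean log2 value of 15 measured lymphocyte markers (of 17) was 6.56 to 6.85 in treated knock-out and 6.17 to 6.34 in treated wild-type arrays, against 6.77 to 7.04 in untreated knock-out and 6.71 to 6.90 in untreated wild-type arrays. That of 13 macrophage markers (of 14) was 10.23 to 10.69 in treated knock-out and 9.66 to 10.15 in treated wild-type arrays, against 10.08 to 10.38 in untreated knock-out and 9.77 to 10.29 in untreated wild-type arrays. The treated knock-out range of the lymphocyte markers thus overlapped the untreated one, the treated wild-type range lay below it, and the highest macrophage mean was that of treated knock-out array 2, which also had the highest Psmb8, Psmb9 and Psmb10. Treated knock-out array 1 was next highest for all 3 genes. Its macrophage mean was 10.24, below that of untreated knock-out array 1 (10.38) and untreated wild-type array 3 (10.29). Treated knock-out minus treated wild-type liver had a median of 0.54 for lymphocyte and 0.58 for macrophage markers, against 0.023 over all probe sets. At an unadjusted limma p under 0.05, 7 lymphocyte and 8 macrophage markers were higher and 0 lower there. Of all probe sets 10.7% were higher and 7.71% lower by that rule, and none of these markers passed the threshold. In the averaged MMS effect 3 lymphocyte markers fell and none rose, and of the macrophage markers 1 rose (Marco) and 2 fell (Adgre1 and Csf1r). Of the other lists, 2 of 10 measured neutrophil markers rose (S100a8 and S100a9) and none fell, while 6 of 14 endothelial and 5 of 12 stellate markers fell and none rose. Of all probe sets 4.61% were called higher and 6.66% lower in this comparison. Deposited values carry no detection call and no zero, so absent markers could not be told from dim ones, and the part of these cells in the Psmb8 rise was not tested.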

How the data were processed

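RNA from the livers of 12 animals, 3 in each of 4 groups, was measured on Affymetrix arrays, 1 array per animal. Total RNA was extracted with Trizol and labelled as biotinylated cRNA, per the labels' protocols. The values are log2 expression values per probe set, made by the authors with RMA, per the submitters' processing notes. RMA corrects background, normalizes arrays to each other and summarises the probes of a probe set, so values of an array depend on the arrays processed with it. The log base was inferred from the range of the values and from what RMA commonly returns. The RMA version and chip definition were not given in the sources used here, and the values carry no detection calls.

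Of 22690 probe sets, 64 control probe sets were left out of the tests and 22626 were tested with no filter on low values. GEO's platform annotation gave 1 gene symbol to 20380 of these, several to 691 and none to 1555. Symbols were matched to RefSeq by gene identifier for 20351 probe sets, and 0 changed. Each gene was represented by its brightest probe set, averaged over the 12 arrays.

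A linear model with 1 mean per group was fitted to all 12 arrays with limma 3.58.1 in R 4.3.3 (8 residual degrees of freedom, moderated by eBayes), and 7 contrasts were tested. P-values were adjusted with the Benjamini-Hochberg method over all tested probe sets at 0.05. The fit was tested on simulated data. With 3 animals a group, the number of arrays limits the precision. By the sample titles, each replicate is its own animal.

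The members and the related gene lists were chosen with earlier results of these data known. Named with values were the members past the threshold or, where fewer than 3 passed, the 3 with the smallest p in a contrast, the catalytic and immunoproteasome subunits, and the members with the largest or smallest change of a class. Mean levels were not ranked across genes, because signals of different probe sets are not on 1 scale. Of the related lists, members past the threshold were named, up to 4 by smallest p, and Nfe2l1 and Nfe2l2 were named besides, as a choice made with their values seen. Alternatives covered filters on low values, normalization, the variance model, a block for the animal number, weights for arrays, left-out arrays, the choice of probe set and the 5′ to 3′ control ratio.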

Additional observations from a re-analysis of the deposited data

Results flagged for a closer look

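For 2 of the 40 genes the responses ran in opposite directions in the 2 genotypes: every treated knock-out array lay below, and every treated wild-type array above, the mean of its own untreated group. Psmb4, a structural subunit of the beta ring, deviated by -0.165, -0.237 and -0.020 in treated knock-out and by 0.095, 0.052 and 0.077 in treated wild-type liver, and its difference of responses was -0.22. Psmc4, a cap ATPase, deviated by -0.42, -0.52 and -0.044 in treated knock-out and by 0.32, 0.11 and 0.080 in treated wild-type liver, and its difference of responses was -0.50. The other probe set of each gene did not repeat the pattern, with responses of 0.076 ± 0.10 in knock-out and 0.074 ± 0.10 in wild-type liver for Psmb4 and of -0.013 ± 0.12 in knock-out and 0.15 ± 0.12 in wild-type liver for Psmc4. In limma neither difference of responses passed the threshold. The same pattern was seen in 10.2% of all probe sets, against 5% of the 40 genes.

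The probe set that names both Psme2 and Psme2b was not among the 40 genes and had a signal of its own. It read 11.86, 12.01 and 11.22 in treated knock-out and 10.86, 11.61 and 11.12 in treated wild-type liver, against 11.13, 10.89 and 11.09 in untreated knock-out and 11.11, 11.09 and 11.34 in untreated wild-type liver. Its treated knock-out arrays were all above the untreated knock-out ones (0.66 ± 0.23, limma adjusted p = 0.114), while its wild-type groups overlapped (0.019 ± 0.23). It cannot be told from these values which of the 2 genes was measured.

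The control probe sets were outside the tests. The highest log2 ratio of 5′ over 3′ signal of Gapdh in a treated array was -0.67, in knock-out array 2, against a highest value of -1.50 in an untreated array. Groups of 3 animals were too small for single arrays to be screened as outlying.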

How the results depend on the processing

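The positive median of the 40 genes in the averaged MMS effect (0.22) and in each genotype kept its sign under every alternative run. The number of genes past the threshold did not keep its size. Shares of all probe sets that passed in the same fit stand in brackets. For the averaged MMS effect, where 4 passed (11.3%), it was 8 without the dimmest 25% (18.3%) and 14 without the dimmest 50% of probe sets (25.4%), 9 after a further quantile normalization (12.6%), 14 with each array centred on its median (12.3%), 10 with a trended and robust variance (13.3%), 24 with array weights (33%), 12 when knock-out arrays 3 of both treatments were left out (18.5%), 7 when a gene's probe sets were averaged (13.4%), 0 with the 5′ to 3′ control ratio as covariate (5.13%), and 0 without the 3 arrays of highest ratio (1.59%), an alternative chosen after seeing the data. With 1 array left out it ran from 0 to 15. For MMS in knock-out liver, where 0 passed (1.51%), it was 4 without the dimmest 25% (5.72%), 8 without the dimmest 50% (14.8%), 4 with the trended and robust variance (4.55%), 23 with array weights (25.6%), 11 when the same 2 knock-out arrays were left out (14.7%) and 3 with 1 probe set per gene (3.47%), and it ran from 0 to 15 with 1 array left out. For MMS in wild-type liver 2 genes passed after centring (7.88%) and 1 each with the trended and robust variance (7.39%), array weights (21.5%) and the mean of probe sets (8.42%). For Aag loss in treated liver 1 passed without the dimmest 50% (1.77%), 5 with array weights (6.55%) and 3 without those 2 knock-out arrays (5.98%), and 0 to 3 with 1 array left out. For the dependence on Aag 7 passed with array weights (10.4%).

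Centring moved the median in wild-type liver to 0.31, for Aag loss in treated liver to -0.054 and for the dependence on Aag to -0.053. The covariate moved the median to 0.12 in knock-out liver, to -0.018 for Aag loss in treated liver and to -0.017 for the dependence, and without the 3 arrays that in knock-out liver was 0.17. With 1 array left out the medians ran from 0.17 to 0.26 for the averaged MMS effect, from 0.25 to 0.36 in knock-out liver, from 0.065 to 0.19 in wild-type liver, from 0.058 to 0.19 for Aag loss in treated liver, from -0.075 to -0.033 for Aag loss in untreated liver, from 0.14 to 0.31 for the dependence and from -0.0079 to 0.065 for the averaged Aag effect. The averaged MMS effect of Psmc6 turned to -0.059 (limma adjusted p = 0.768) with the mean of its 3 probe sets, since the other 2 ran lower. For single genes, 453 values kept their direction and side of the threshold, 41 passed it in addition, 45 no longer passed it and 1 changed sign. With the animal number as a replicate block 2 genes passed in the averaged MMS effect (9.63%), and Psma7 (adjusted p = 0.0518) and Psmc6 (adjusted p = 0.0673) did not. Same-numbered animals correlated at -0.48 to 0.40 in their deviations from the group means, so the numbers were not taken as pairs. Causes of these shifts were not tested.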

Other observations

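The probe sets of Psmd11, a lid subunit of the cap, disagreed. In knock-out liver the probe set used stood at -0.080 ± 0.11 after MMS, and the others at 0.22 ± 0.11, 0.88 ± 0.30, 0.064 ± 0.14, 0.79 ± 0.32 and -0.72 ± 0.32, none past the threshold. The one at 0.88 read 10.25, 10.36 and 9.09 in treated against 9.04, 8.96 and 9.06 in untreated knock-out liver, so its difference lay in knock-out arrays 1 and 2. The one at -0.72 read 6.58, 6.23 and 7.75 in treated against 7.78, 7.56 and 7.395 in untreated knock-out liver, and was lowest in the same pair of arrays.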
